A study of Drosophila melanogaster with 3 samples.

Results

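Distal intergenic peaks are the places bound by CG6254-GFP that lie in no gene and far from any transcription start site (TSS). CG6254 is a zinc finger protein of Drosophila melanogaster. Its binding was mapped by chromatin immunoprecipitation and sequencing (ChIP-seq) in whole embryos of mixed sex, collected from 0 to 14 h. The embryos came from a transgenic line that stably expresses CG6254 with green fluorescent protein (GFP) fused to its C-terminus, and the chromatin, sheared by sonication to 200 to 800 bp, was precipitated with an antibody against GFP. All samples belong to 1 group of 3 biological replicates. No untagged or untreated sample was analysed here, so the bound places could only be compared with one another, with their own flanks and between replicates. The members were taken from the authors' irreproducible discovery rate (IDR) list on the dm6 build, which is made by keeping peaks whose ranks recur between replicates. A peak was kept when its summit, the position of its highest signal, was more than 1000 bp from every annotated TSS and outside every gene body. Of the peaks on that list 598 met the rule and the other 3828 did not, so that the members made up 13.5%. Among the others were 1888 promoter peaks, with a summit within 500 bp of a TSS, and 1382 distal intron peaks, with a summit in an intron more than 1000 bp from a TSS.

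Intergenic DNA of the fly holds enhancers, silencers and boundary elements, short stretches to which sequence-specific factors bind and which can act on genes at a distance. Such elements are dense around genes that encode developmental regulators, which are expressed in small domains of the embryo. A ChIP-seq peak shows where the tagged protein was recovered with DNA, directly or through other proteins, and does not name the gene on which it acts, so the genes beside a peak are given below only as its neighbours.

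The windows below show the DNA at 9 summits, because the results turn on what these letters hold. Each is the plus strand of the RefSeq copy of the dm6 assembly, from 50 bp before to 50 bp after the summit, and is named by its neighbouring genes and its rank by signal in the IDR list. Capitals mark the 8 bases ACAGGGTG or their reverse complement CACCCTGT. The first 5 windows hold them and the last 4 do not.
lncRNA:CR45379 to lncRNA:CR43917, peak of rank 37, chr3L:3878840-3878940: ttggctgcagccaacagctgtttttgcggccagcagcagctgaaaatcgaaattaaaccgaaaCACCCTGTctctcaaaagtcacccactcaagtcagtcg
lncRNA:CR44971 to ACXC, peak of rank 107, chr2L:12854754-12854854: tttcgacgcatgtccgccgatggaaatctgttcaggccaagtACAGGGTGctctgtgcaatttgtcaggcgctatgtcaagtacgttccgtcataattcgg
AOX4 to CG43335, peak of rank 191, chr3R:15589118-15589218: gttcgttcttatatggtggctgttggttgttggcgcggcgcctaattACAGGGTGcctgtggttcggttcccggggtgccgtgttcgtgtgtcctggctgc
HGTX to shd, peak of rank 196, chr3L:14607771-14607871: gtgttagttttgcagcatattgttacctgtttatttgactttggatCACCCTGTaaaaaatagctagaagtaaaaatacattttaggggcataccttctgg
beat-IIIc to lncRNA:CR45729, peak of rank 248, chr2L:17267468-17267568: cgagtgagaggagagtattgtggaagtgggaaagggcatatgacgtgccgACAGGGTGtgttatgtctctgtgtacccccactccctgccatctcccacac
sim to lncRNA:CR44967, peak of rank 53, chr3R:13078496-13078596: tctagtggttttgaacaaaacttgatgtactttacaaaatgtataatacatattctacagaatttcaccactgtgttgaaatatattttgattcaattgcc
COX7AL2 to CG31668, peak of rank 77, chr2L:2202365-2202465: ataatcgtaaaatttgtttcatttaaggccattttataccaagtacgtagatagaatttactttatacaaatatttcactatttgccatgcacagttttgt
slp1 to slp2, peak of rank 198, chr2L:3832468-3832568: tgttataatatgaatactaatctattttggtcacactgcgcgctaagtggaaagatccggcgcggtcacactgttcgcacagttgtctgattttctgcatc
NijA to CG43245, peak of rank 296, chr3L:10769743-10769843: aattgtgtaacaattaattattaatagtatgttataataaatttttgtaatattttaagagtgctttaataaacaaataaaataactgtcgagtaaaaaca

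The first window was the strongest distal intergenic peak, with a deposited signal of 4115. It lay on 3L, 14466 bp beyond lncRNA:CR45379 and 5591 bp before lncRNA:CR43917. Its nearest protein-coding neighbours were Awh, a LIM homeobox gene 17198 bp away, and Fie. This peak ranked 39, 34 and 41 in replicates 1, 2 and 3, and 37 in the IDR list. Its place differed little between replicates, but the list keeps peaks whose ranks recur in them. The second strongest member had a signal of 2697 and lay on 3R, 422 bp beyond the end of sim, the gene for a bHLH-PAS transcription factor of the ventral midline. It ranked 53, 52 and 61 in the replicates. The strongest member on 2L, with a signal of 1705, lay between COX7AL2 and CG31668 and ranked 89, 84 and 66. Their windows differ in makeup, with a GC content of 49.5% at the strongest peak, 27.7% beside sim and 26.7% beside COX7AL2.

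The deposited signal of the members ran from 147.8 to 4115, with a median of 216.7 and quartiles of 175.3 and 318.8. The signal is 1 value per peak from the replicates pooled, on a scale the authors do not state, so it is used only to rank peaks and carries no error. The median was 237.5 at promoter peaks, 224.2 at distal intron peaks and 228.7 over all IDR peaks. Of the members 38 were among the strongest 10% of the IDR list, which is 6.35% of them (exact 95% interval 4.54 to 8.62). The same share was 14.2% at promoter peaks (12.7 to 15.9) and 5.93% at distal intron peaks (4.75 to 7.31). These intervals cover counting error only, and peaks are not replicates.

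The share of distal intergenic peaks also differed down the pooled list of 30000 peaks, from which the IDR list is the upper end. It was 8.58% in the strongest 10% of the IDR list, 13.1% in the next 40% and 14.8% in the weakest 50%. Below the IDR list it was 16.1% down to rank 10000, 20.6% from there to rank 20000 and 22.5% in the rest. Distal intergenic DNA makes up 25.1% of the arms. The density of IDR peaks was 17.8 per Mb of distal intergenic DNA, 28.5 per Mb of distal intron DNA and 104.1 per Mb of promoter DNA. The DNA of each class was counted whole, with mobile elements and with arm ends beyond the outermost IDR summits. Without both, distal intergenic peaks stood at 27.8 per Mb on 2L, 12.6 on 2R, 46.6 on 3L and 24.0 on 3R. On X the value was 11.4 and on chromosome 4 it was 62.4. The other classes were not counted that way.

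Replicates were compared by looking, for each IDR peak, for a replicate summit at most 200 bp away. Only the strongest peaks of a replicate were searched, as many as the IDR list holds. Over all IDR peaks this was so in all 3 replicates for 56.0%. Among the members it was so for 320 of 598, or 53.5% (exact 95% interval 49.4 to 57.6), which is near that background. In replicates 1, 2 and 3 the matched share of the members was 70.1%, 78.9% and 84.8%. At promoter peaks it was 81.2%, 84.6% and 74.6%, and at distal intron peaks 73.7%, 79.2% and 86.1%. The members minus promoter peaks gave -11.1 and -5.71 percentage points in replicates 1 and 2 and 10.2 points in replicate 3, so the sign changed. The mean difference was -2.21 ± 11.1 points (SD, n = 3), and the exact two-sided permutation test over replicates gave p = 0.75. Members minus distal intron peaks gave -3.59, -0.303 and -1.32 points, lower in 3 of 3 replicates. That mean difference was -1.74 ± 1.68 points (SD, n = 3) with an exact permutation p of 0.25, the smallest that 3 replicates allow, so this design cannot reach 0.05. The IDR list was made from these replicates, which shared 1 control alignment, and 10, 0 and 22 of the matched members in replicates 1, 2 and 3 shared their replicate peak with another member.

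**Figure D1:**
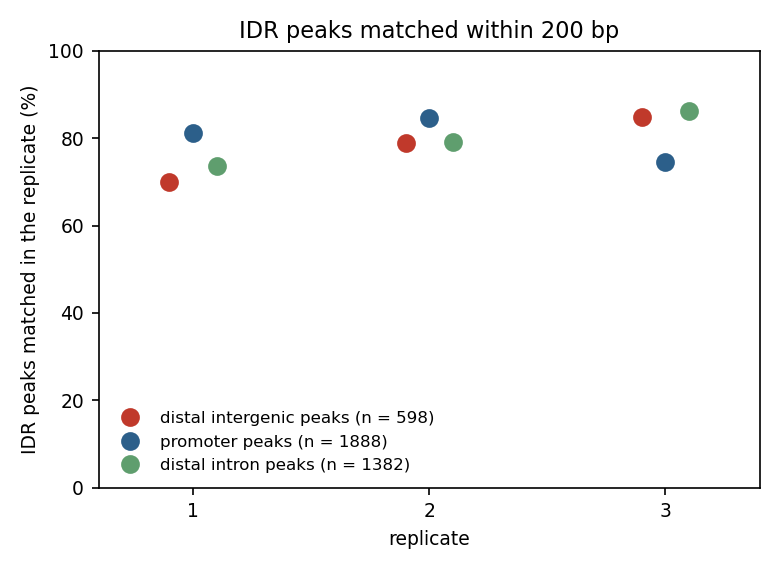
Share of IDR peaks (vertical axis, percent) that have a summit at most 200 bp away in the strongest peaks of a replicate (horizontal axis), for distal intergenic, promoter and distal intron peaks, with 1 point per replicate and class. Distal intergenic peaks lie below promoter peaks in replicates 1 and 2, at 70.1% and 78.9%, and above them in replicate 3, at 84.8%.

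Recovery followed rank within each class. All 38 members of the strongest 10% were matched in every replicate. In the next 40% it was 213 of 232, or 91.8%, against 88.0% at promoter and 88.4% at distal intron peaks. In the weakest 50% it was 69 of 328 members, or 21.04%, against 19.8% and 23.4%. There replicate 3 matched 73.8% of the members and replicate 1 matched 48.5%, whereas at promoter peaks replicate 3 matched 51.7% and replicate 1 matched 63.3%. In the full lists of 30000 peaks 98.0% of the members had a summit within 200 bp in every replicate. Over members matched in both replicates of a pair, the rank correlation of their replicate ranks (Spearman's rho, a description across peaks of the same lists) was 0.73 for replicates 1 and 2 over 357 peaks, 0.65 for 1 and 3 over 371 peaks and 0.76 for 2 and 3 over 400 peaks. When the rule was applied to as many of the strongest peaks of each replicate alone, it found 544, 544 and 642 distal intergenic peaks, 577 ± 56.6 (SD, n = 3). The shares were 12.3%, 12.3% and 14.5%, highest in replicate 3. The promoter shares of those lists were 47.6%, 46.8% and 37.5%, lowest in replicate 3. Read depth is unknown here, and its part in these differences was not tested.

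The members were spread unevenly over the chromosome arms. Arm 3L held 225 of the 598 members, or 37.6%, though it holds 25.2% of the distal intergenic DNA and 20.7% of the other IDR peaks. Arm 2L held 135, 3R 129, 2R 60, X 44 and the small chromosome 4 held 5. The members thus stood at 26.6 per Mb of distal intergenic DNA on 3L, 22.1 on 2L, 18.4 on 3R, 8.99 on X and 8.65 on 2R, and the 5 on chromosome 4 at 23.0 per Mb. In the lists of each replicate alone 3L held 35.8%, 37.3% and 38.8% of the distal intergenic peaks and 20.3%, 20.8% and 20.6% of the rest. The difference was 15.5, 16.5 and 18.2 percentage points, with a mean of 16.7 ± 1.33 (SD, n = 3). It had the same sign in 3 of 3 replicates, and the exact two-sided permutation p was 0.25, the smallest possible. Of distal intron peaks 20.04% lay on 3L and of promoter peaks 21.6%. This arm was singled out after its values were seen.

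The higher density on 3L was also seen when other DNA was counted. Over the whole of the distal intergenic DNA it was 1.79 times that of the other arms, and 1.66, 1.77 and 1.88 times in replicates 1, 2 and 3. Counting only DNA between the first and last IDR summit of each arm, without mobile elements, it was 2.37 times. Over that DNA 3L had 46.6 members per Mb and 20.3% of the DNA, and chromosome 4 had 62.4 per Mb from its 5 members, so 3L was not the densest there. Part of it lay in crowded stretches. Counting each intergenic stretch with a member once, 3L held 111 of 376 stretches, or 29.5%. The members on 3L had a median signal of 209, against 233.9 on 2L, 195.8 on 3R and 245.7 on 2R. Of them 53.8% were matched in every replicate, close to the 53.5% over all members.

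**Figure D2:**
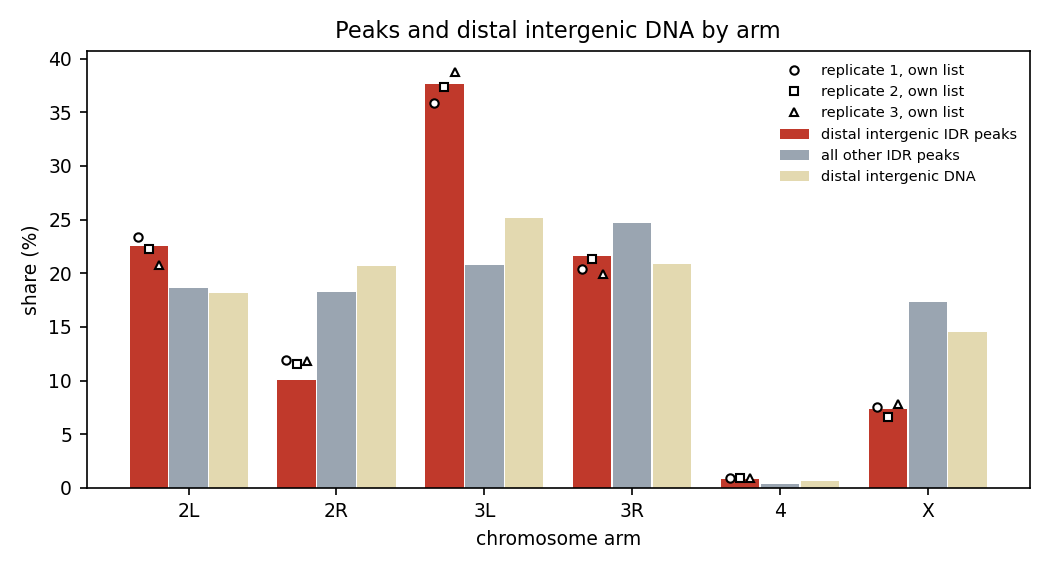
Share (vertical axis, percent) of distal intergenic IDR peaks, of all other IDR peaks and of distal intergenic DNA on each chromosome arm (horizontal axis), as bars. Open symbols give the distal intergenic peaks of each replicate's own list. On 3L the bar of the members stands at 37.6%, beside 20.7% for other peaks and 25.2% for the DNA, and the replicates stand between 35.8% and 38.8%.

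An intergenic stretch is the DNA between neighbouring gene bodies. Of 4793 stretches that contain distal intergenic DNA, 376 held a member, or 7.84%. Of these 249 held 1 member, 76 held 2, 35 held 3 and 16 held 4 or more. The crowded 16 held 92 members, 15.4% of all, and 12 of them lay on 3L with 75 members. Stretches with a member had a median length of 10772 bp and those without 2773 bp. Per Mb of distal intergenic DNA, however, members were most frequent in short stretches. The density was 36.6 per Mb in stretches up to 5000 bp, 23.5 from there to 10000 bp and 25.3 from 10000 to 20000 bp. It was 17.2 from 20000 to 50000 bp and 3.49 in stretches over 50000 bp. This DNA too was counted with mobile elements and arm ends.

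The most crowded stretch ran from tRNA:Ile-TAT-1-2 to CG13898 on 3L (positions 770463 to 803426) and held 12 members. Their signals were all low, between 150.1 and 269.1, and 6 of the 12 were matched in every replicate. The lists of replicates 1, 2 and 3 alone placed 8, 10 and 11 distal intergenic peaks there. The next was the stretch of 75047 bp from NijA to CG43245 on 3L, which held 8 members. NijA encodes a Ninjurin, a cell surface protein of adhesion and damage responses. The 8 signals ran from 163.3 to 691.3, and the strongest of them stands in the last window of the first set, with a GC content of 16.8%. All its members lay in the right-hand part of the stretch, and 5 of the 8 were matched in every replicate.

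The other 3 of the 5 most crowded stretches held 7 members each, also on 3L. Between lncRNA:CR44363 and CG7560 the signals ran from 157.3 to 603.1 and 6 of 7 members were matched in every replicate. Here 4 members of signals 365.8 to 603.1 lay close together, with summits at 11416914, 11417550, 11417752 and 11418503. The middle pair had the same nearest peak in replicate 3 but different ones in replicates 1 and 2. Between CG7320 and lncRNA:CR45935 the strongest signal was 959.1 and 5 of 7 were matched in every replicate. Between lncRNA:CR45036 and lncRNA:CR42755 the strongest was 437.5 and 2 of 7 were. The replicates' own lists held 4, 8 and 4 distal intergenic peaks in that stretch, the widest spread of the 5.

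**Figure D3:**
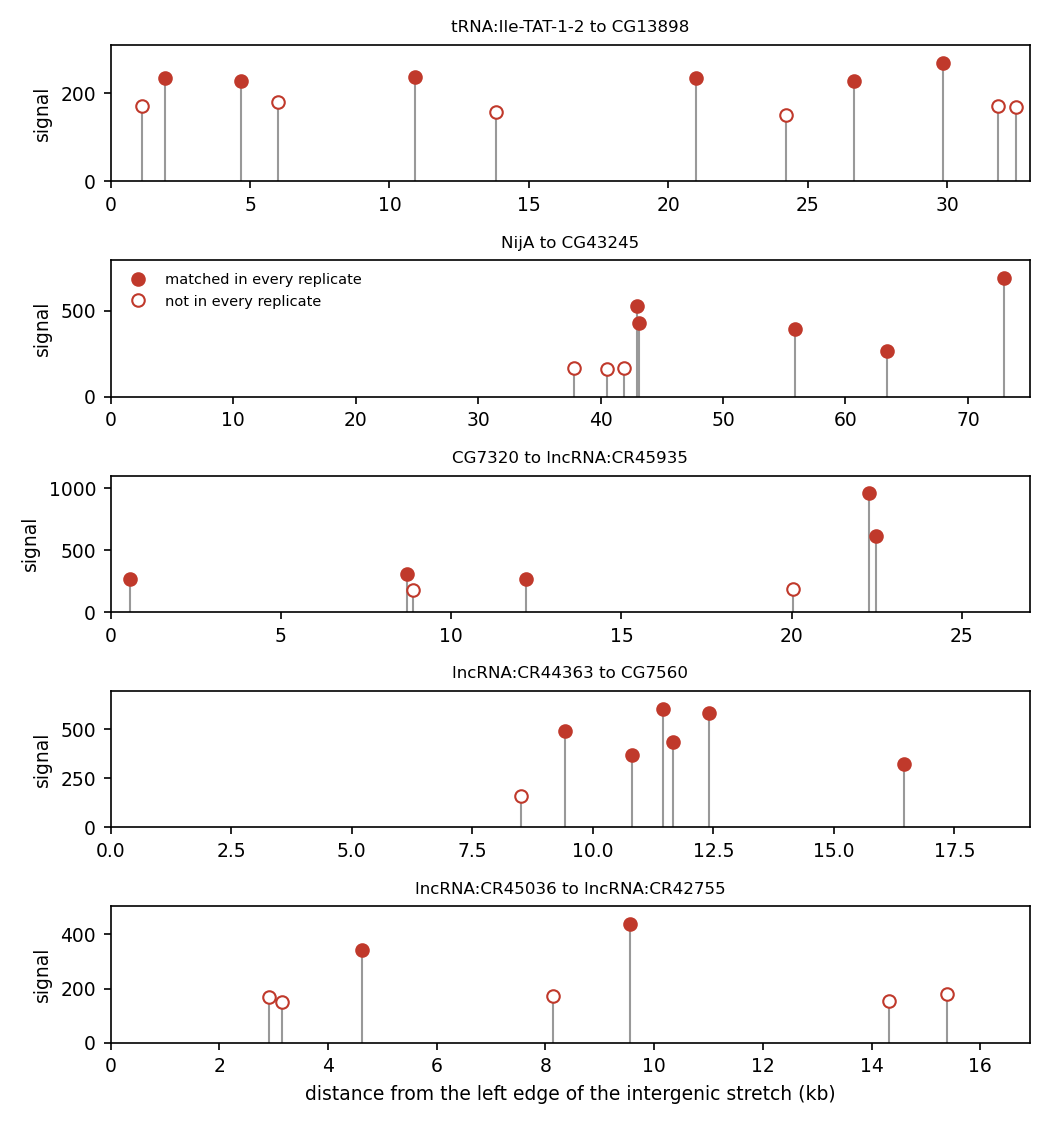
Deposited signal of each member (vertical axes, scale not stated by the authors) against its distance in kb from the left edge of its stretch (horizontal axes), for the 5 intergenic stretches with the most members, each named by its border genes. Filled points were matched in every replicate and open points were not. The stretch from tRNA:Ile-TAT-1-2 to CG13898 holds 12 members of signals between 150.1 and 269.1.

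Spacing was counted over all arms together, with no expected spacing worked out beside it. A member had another member within 5000 bp in 44.6% of cases, within 2000 bp in 29.3% and within 500 bp in 6.02%. In the replicates' own lists the share within 5000 bp was 41.9%, 43.4% and 43.3%, with a mean of 42.9% ± 0.827 (SD, n = 3). The median gap was 7044 bp to the nearest other member, 3695.5 bp to the nearest IDR peak of any class and 26637 bp to the nearest promoter peak. A promoter peak lay within 10000 bp of 150 members, or 25.1%. Linking members at most 5000 bp apart gave 103 chains with 267 members. The longest held 7 members each, among them the group between lncRNA:CR44363 and CG7560, whose first and last summits were 7950 bp apart.

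The median distance from a member to the nearest TSS was 4043 bp, with quartiles of 2066 and 7802 bp. The lower end is set by the rule. In the replicates' own lists the median was 3774, 4039 and 4255 bp. Members between 1000 and 2000 bp from a TSS numbered 141, and 23 were more than 20000 bp away. Per Mb of DNA at that distance the density was lower at each step, from 30.9 between 1000 and 2000 bp to 23.3 up to 5000 bp, 19.7 up to 10000 bp, 16.8 up to 20000 bp and 2.90 beyond. Mobile elements and arm ends were included in that DNA. The members lay upstream of the nearest TSS in 56.7% of cases. That TSS belonged to a protein-coding gene for 384 members, to a non-coding RNA gene for 194 and to a tRNA gene for 20. Stretches whose border genes point away from each other held 21.9 members per Mb, those with genes in tandem 16.8 and those with genes pointing at each other 16.9.

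The farthest member lay 43286 bp from the nearest TSS, that of lncRNA:CR40341 on 2L. Its signal was 175.2, and it ranked 2034 in replicate 3 but 9535 and 8708 in replicates 1 and 2. The next lay 37221 bp from the TSS of CG43245 in the NijA stretch, with a signal of 164.8. The third lay 36335 bp from the TSS of AOX4, an aldehyde oxidase gene on 3R, and was much stronger, with a signal of 909.5 and ranks of 151, 147 and 378. It is the third window above. At the limit of the rule the nearest members inside it were beside Prip at 1005 bp, with a signal of 307, and beside corto at 1009 bp, with 272.7. The nearest intergenic peaks outside it were beside lncRNA:CR45251 at 991 bp, with a signal of 181.2, and beside lncRNA:CR45693 at 955 bp, with 419.8.

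The 20 strongest members had signals from 794.1 to 4115 and were all matched in every replicate. Their median rank was 107 in replicate 1, 113 in replicate 2 and 144 in replicate 3, against 115.5 in the IDR list. Among them 7 lay on 2R, 4 each on 2L, 3L and 3R and 1 on X, so 3L did not lead at this end of the list. On 2R the peak of rank 55, between CG8654 and tRNA:Arg-CCT-1-2, ranked 55, 53 and 63 in the replicates. The peak of rank 61 lay between lncRNA:CR44761 and Ppa, an F-box protein gene, and ranked 52, 59 and 79. A weaker neighbour of rank 233 in the same stretch ranked 251, 187 and 316. The nearest protein-coding gene of both was RYBP, on the side of lncRNA:CR44761. It lay 5194 and 3895 bp from the peaks of ranks 61 and 233, and Ppa lay 6549 and 7848 bp away. The Polycomb group genes Psc and Su(z)2 stood beside 3 of the 20 strongest members, each of which lay nearer to its other neighbour. That of rank 95 lay 27367 bp from Su(z)2 and 9417 bp from CG13323. Those of ranks 133 and 188 lay between CG13321 and Psc, whose product is a subunit of Polycomb repressive complex 1. They were 2504 and 3684 bp from CG13321 and 7781 and 6601 bp from Psc. Polycomb group genes were not among the gene lists counted below, so no background stands beside this count. The peak of rank 188 ranked 366 in replicate 1 but 174 and 151 in the others.

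Others of the 20 lay beside genes of varied roles. The peak of rank 98 lay between Eaat2, a glutamate transporter gene, and GABA-B-R3, a GABA receptor gene, and ranked 80, 94 and 158. The peak of rank 113 lay in a stretch of 437 bp between Sol1 and Cyp9f2, a cytochrome P450 gene, and that of rank 129 in a stretch of 1340 bp between blw, an ATP synthase subunit gene, and CycB, a mitotic cyclin gene. Further peaks of this set were that of rank 92 between lncRNA:CR45937 and lncRNA:CR45936, that of rank 118 between CG43131 and RabGGTa and that of rank 174 between CG7320 and lncRNA:CR45935. On X the strongest member had a signal of 1046 and lay 1265 bp upstream of fz3, a Frizzled family gene. It ranked 112, 115 and 265. Also in this set, the peak of rank 107 lay between lncRNA:CR44971 and ACXC, an adenylyl cyclase gene. That of rank 196 lay between HGTX, a homeobox gene, and shd, a gene of ecdysone synthesis. The strongest member of chromosome 4 had a signal of 658.6, rank 324, and lay 3888 bp upstream of zfh2, a zinc finger homeodomain gene.

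Protein-coding genes that border a stretch with distal intergenic DNA numbered 5901, and 471 of them bordered a member, a background of 7.98%. This share depends on how long the stretch beside a gene is. It was 3.24% for genes whose longest stretch was up to 5000 bp, 9.94% up to 10000 bp, 19.3% up to 20000 bp, 28.0% up to 50000 bp and 17.2% beyond. Of the 471 neighbours 15.5% had a promoter peak of their own, against 13.4% of the other 5430. In the replicates' own lists 7.64%, 7.29% and 8.46% of the genes bordered a distal intergenic peak.

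The lists of embryonic patterning genes had counts above the background over all genes. Among pair-rule genes, which set up segments in the early embryo, 5 of 10 bordered a member, and among gap and head gap genes 6 of 13. Dorsoventral patterning genes gave 6 of 15, the list of segment polarity, Wnt and Hedgehog members 6 of 19, and neural and eye transcription factor genes 6 of 23. The median longest stretch of these lists was between 7065 and 13345 bp, against 2648 bp over all 5901 genes, and 10918 bp over the 471 neighbours. Their counts are therefore to be read beside the 9.94% and 19.3% of genes with stretches of such length. Neighbouring genes can share a member, as slp1 and slp2 did, and slp1 stands in both the gap and the pair-rule list.

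Among the genes of these lists, the strongest member lay between slp1 and slp2, forkhead transcription factor genes of segmentation, 5419 bp from the first and 4322 bp from the second. Its signal was 899 and it ranked 173, 229 and 190. It is the eighth window above. A second member lay 803 bp from slp1, with a signal of 364.5 and ranks of 1233, 2012 and 714. Beside ems, a head gap homeobox gene, 5 members stood, the strongest with a signal of 461.6 and ranks of 542, 533 and 1039. In the Wnt and Hedgehog list, ptc, the Hedgehog receptor, bordered a member of signal 458.3, and fz, a Wnt receptor, one of 409.6. The stretch between Wnt4 and wg, both Wnt ligand genes, held 3 members, the strongest with 382.2 and ranks of 1096, 928 and 1116. Beside Doc2, a T-box gene of dorsal tissues, there were 4, the strongest with 431, and tup, a LIM homeobox gene, bordered one of 390.8. The Pax6 gene toy bordered one of 330.3, and pros, a homeobox gene of neural fate, one of 250.5.

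Homeobox genes outside the patterning lists also had a count above the background, with 15 of 45 (33.3%) and a median longest stretch of 12006 bp. They were led by HGTX and zfh2, and vvl, a POU factor gene, had 6 members in its stretch of 70507 bp, the strongest of signal 385.9. That list overlaps the others in ems, tup and mirr. Cell adhesion and axon guidance genes gave 6 of 28, led by beat-IIIc at 769.5 and robo2, a Slit receptor gene, at 442.2. Mesoderm and heart genes gave 3 of 19, the strongest being bin, a forkhead gene of the visceral mesoderm, at 576.4, and mid, a T-box gene, at 238.8. Notch pathway and proneural genes gave 2 of 11, Ser, a Notch ligand gene, at 205.1 and fng, which modifies Notch, at 163.7. Of ecdysone response and nuclear receptor genes 1 of 11 bordered a member, Hr38 at 207.1. Odorant, gustatory and ionotropic receptor genes gave 6 of 98, led by Gr89a at 379 and Gr93a at 355.2. Ribosomal protein genes gave 2 of 33, RpLP0 at 201.9 and RpS23 at 181, and cuticle protein genes 1 of 69, Cpr100A at 149.2. None of 7 Hox genes and none of 6 insulator and architectural protein genes bordered a member. Their median longest stretches were 5854 and 47 bp. With so few genes, and 3.24% bordering a member among all genes with stretches up to 5000 bp, these counts show no avoidance. The median was 8123.5 bp for adhesion and guidance genes, 6011 bp for mesoderm and heart genes and 4963.5 bp for receptor genes. It was 2833 bp for Notch, 2247 bp for ecdysone, 2183 bp for cuticle and 1904 bp for ribosomal protein genes. MicroRNA genes do not code for protein and were not among the 5901.

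The DNA at the members' summits was poor in G and C. Over the window from 50 bp before to 50 bp after the summit the GC content was 33.9% ± 9.73 (SD over 598 peaks), against 44.4% ± 7.01 in windows of that length centred 350 bp away on both sides. The summit was lower than its flanks at 475 members, or 79.4%. That share was 74.0% over all IDR peaks, 77.5% at distal intron and 71.4% at promoter peaks. All windows of that length tiled over distal intergenic DNA had 40.9% ± 9.71. In the replicates' own lists summits minus flanks gave -6.72, -8.34 and -12.4 percentage points, with the deepest dip in replicate 3. A dip of this kind was also present at promoter peaks, with 35.5% at summits and 43.9% in flanks, and at distal intron peaks, with 33.7% and 43.2%. It was smallest among the members of the strongest 10% of the list, which had 36.9% ± 13.2 (SD over 38 peaks) at their summits and 43.9% in flanks. The 232 members of the next 40% had 32.8% ± 8.59 and 44.1%.

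**Figure D4:**
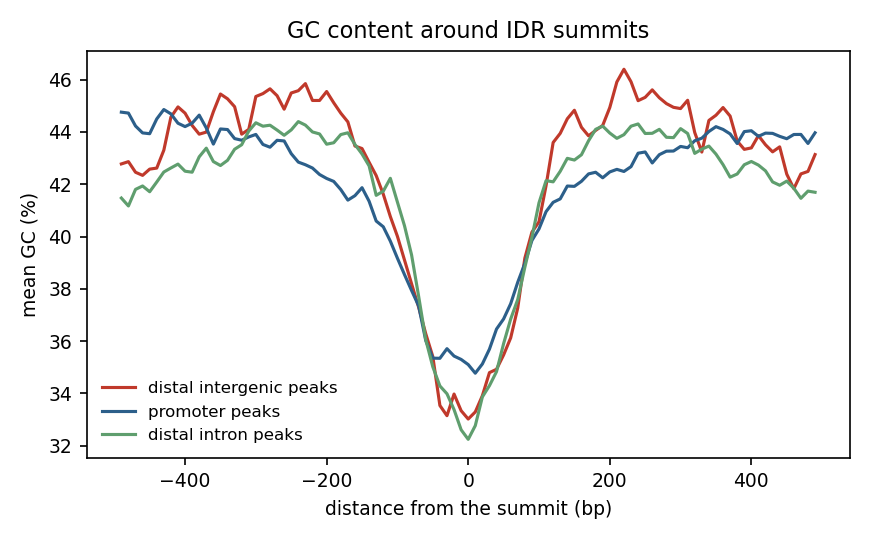
Mean GC content (vertical axis, percent, smoothed over 21 bp) against the distance from the summit in bp (horizontal axis) for distal intergenic, promoter and distal intron peaks. All 3 curves dip at the summit, the distal intergenic one to 33.0%.

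Short sequences were counted on both strands within 50 bp of the summit and in the flanks. TATAAA stood at 145 members (24.2%) against a mean of 52 in flanks (8.7%), and TAATTA, a homeodomain core, at 64 (10.7%) against 42.5 (7.11%). Both are rich in A and T, as the summits were. At the other IDR peaks they stood at 21.6% and 9.98% of summits, so neither was particular to the members. CAGCTG stood at 15 members against 20.5, GAGAGAG at 7 against 9.5, CACGTG at 3 against 8.5 and CAGGTAG at 2 against 5. TATCGATA stood at 1 member and GGTCACAC at 3, against means of 0 and 0.5 in flanks. At promoter summits those 2 were at 37 and 28 of 1888 peaks, against 8.5 and 7 in flanks. The shares of the tiled windows were 12.3% for TATAAA, 7.33% for TAATTA, 3.44% for CAGCTG, 1.1% for GAGAGAG, 1.08% for CACGTG, 0.429% for CAGGTAG, 0.209% for TATCGATA and 0.127% for GGTCACAC.

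To find other recurring sequences, 8-mers were picked on the 3828 IDR peaks that are not members and then counted in the members. The 5 with the largest excess over flanks were all built of A and T, TAAATAAA, AAAATATT, AATAAATA, TTTAAAAA and TTAAAAAA. They stood at 5.35%, 5.85%, 6.35%, 5.18% and 5.35% of the members and at 2.84%, 3.09%, 2.09%, 1.92% and 1.34% of their flanks. Among the other peaks, on which they were picked, the shares were 6.66%, 6.27%, 6.66%, 5.69% and 5.75%. A further choice by the ratio of summits to flanks, made after these values were seen, put ACAGGGTG first. It stood at 130 of the other peaks and at a mean of 2.5 of their flanks. The tiled windows held it in 0.143%.

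ACAGGGTG was present at 12 members, or 2.01%, against a mean of 0.5 in flanks and a background of 3.21% over all IDR peaks. Of these 12 members 7 were in the strongest 10% of the list, where they made up 18.4% of the 38 members (exact 95% interval 7.74 to 34.3). It stood at 1 of 232 members in the next 40% and at 4 of 328 in the weakest 50%. Promoter peaks of the strongest 10% held it in 49 of 268 cases, or 18.3% (13.8 to 23.4). Distal intron peaks held it in 12 of 82, or 14.6% (7.8 to 24.2). The 8-mer was picked on those peaks and not on the members, which can raise their shares and the background. These shares therefore cannot show whether the classes differ. The median rank of the 12 members was 240.5, against 2453 for members without it, and 9 of the 12 were matched in every replicate. The centre of the 8-mer lay at a median of 9 bp from the summit and at most 46 bp. The 5 windows with capitals at the head of the first set are members of that strongest part of the list, and the remaining pair were the peaks of ranks 55 and 233. Of the 5 others, the peak of rank 681 beside ems and that of rank 2625 between CG11369 and CG12689 were matched in every replicate. Those of ranks 2734, 3814 and 4288, with signals of 201.3, 163.1 and 150.2, were not. Of the 12, 3 lay on 3L.

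The shorter core ACAGGGT stood at 15 members against 3.5 in flanks, and AGGGTG, shorter still, at 26 against 12.5. The other 8-mers of the same choice that overlap ACAGGGTG stood at few members. They were led by ACCCTGTA at 9 against 1.5, ACACCCTG at 7 against 1 and CAGGGTGC at 5 against 0.5. CAGGGTGA stood at 4 against 1 and AGGGTGAC at 3 against 0. AACAGGGT and AGCACCCT stood at 2 each and ACCCTGTG at 1, each against 0.5. ATACAGGG went the other way, at 1 member against 3 in flanks. ACCGGAAA, of the same choice but without overlap, stood at 2 members (0.334%), near the 0.290% of the tiled windows. Most strong members did not hold the 8-mer, including the second strongest beside sim. Some of them held the shorter AGGGTG, among them the peaks of ranks 92, 98, 149, 174 and 244. The windows without capitals in the first set did not hold it. The absence of the 8-mer says only that its letters are not in that window.

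A last 8-mer, CACTGAGA, does not overlap ACAGGGTG and was singled out after its values were seen, as the 12th by the same ratio. The following windows show the 3 strongest members that hold it, on the plus strand, with the 8-mer or its reverse complement TCTCAGTG in capitals.
lncRNA:CR45303 to lncRNA:CR45693, peak of rank 778, chr2L:14502756-14502856: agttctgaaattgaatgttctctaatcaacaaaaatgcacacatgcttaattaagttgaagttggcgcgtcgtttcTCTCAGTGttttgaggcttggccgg
lncRNA:CR44189 to CG31797, peak of rank 1029, chr2L:19226488-19226588: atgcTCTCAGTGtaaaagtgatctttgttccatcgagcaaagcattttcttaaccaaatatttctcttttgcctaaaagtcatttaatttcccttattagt
CG10357 to CG14974, peak of rank 1160, chr3L:3617308-3617408: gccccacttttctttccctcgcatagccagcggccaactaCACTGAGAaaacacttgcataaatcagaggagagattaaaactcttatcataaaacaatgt

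CACTGAGA stood at 14 members, or 2.34%, against 0.5 in flanks and a background of 1.54% over all IDR peaks. The tiled windows held it in 0.33%. Distal intron peaks held it in 30 cases against 4.5 in flanks, and promoter peaks in 14 against 4.5. Peaks of these classes were among those on which it was picked. It was at none of the 38 members of the strongest 10%, a count that allows a share of up to 9.25% by the exact interval. It stood at 6 of 232 members in the next 40% and at 8 of 328 in the weakest 50%. The median rank of the 14 was 2759, against 2430 for members without it, and 8 of the 14 were matched in every replicate. Among them were the peaks between sens and CG10222, sens being a zinc finger gene of sense organ precursors, and between lncRNA:CR43859 and ab, with signals of 257.4 and 241.8. Of the 14, 7 lay on 3L.

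**Figure D5:**
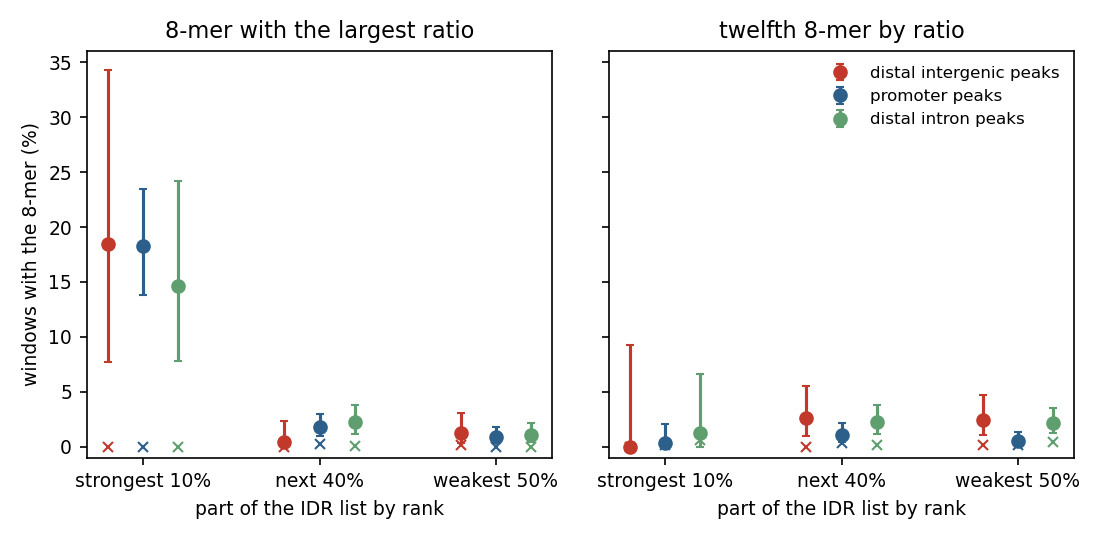
Share of windows (vertical axis, percent) with ACAGGGTG, the 8-mer with the largest ratio (left), and with CACTGAGA, the 12th (right), by part of the IDR list (horizontal axis, by rank) for distal intergenic, promoter and distal intron peaks. Points are summits with exact 95% intervals and crosses are flanks. ACAGGGTG stands at 18.4% of the strongest members and CACTGAGA at none of them.

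Mobile elements made up 11.4% of the distal intergenic DNA and held 1 of the 598 members. How reads were placed in mobile elements is not known here, and its part in this count was not tested. The width of a member was 416 bp in 457 cases, or 76.4%, near the 75.6% over all IDR peaks. No pair of members shared the same deposited interval, but the intervals of some overlapped. Those of ranks 174 and 364 did, with summits 200 bp apart. Such pairs were counted as separate members.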

How the data were processed

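ChIP-seq peak lists were analysed for 1 group of 3 biological replicates, numbered as in the labels. For the dm6 build the authors deposited a relaxed list of 30000 peaks for each replicate and for the pooled replicates, and an IDR list. Each peak's signal is the value the authors deposited, on a scale that is not stated. Per the file headers and accompanying readme texts, replicates were called against 1 shared control alignment. Which aligner and caller made them, in which versions, and how deep the reads were is not given in the sources used here. The deposited summit offset, another column of the authors' files, gave the summits, counted from 1. The dm3 lists were not used.

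TSSs and gene bodies came from the Ensembl annotation (release 115), without mobile elements, on the 6 main arms. Sequence was read from RefSeq's copy of dm6. Ranks were by signal. Summits were matched within 200 bp. Intervals are exact (95%) and replicate differences were tested by exact two-sided permutation, with a smallest p of 0.25. The named items were the 20 strongest members, the strongest of each arm, the 5 stretches with most members, the 3 farthest from a TSS, the 2 strongest-flanked genes of each list and the peaks at the limit of the rule. Members, 16 gene lists and tests were chosen with earlier results of these data known. The choice of 8-mers by ratio, its number of 12, the cores and the counts by arm followed after the data were seen. Of the list entries 14 were found by synonym and 3 were not found. The scripts were tested on simulated data. Python 3.11.15, numpy 2.4.6, pandas 2.3.3, scipy 1.17.1 and matplotlib 3.10.9 were used.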

Additional observations from a re-analysis of the deposited data

How the results depend on the processing

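The TSS distance, the genes used, mobile elements, whole intervals, the match distance, the windows and each replicate were varied. GC at summits minus flanks kept its sign in 12 of 12 alternatives. With a TSS distance of 500 and 2000 bp the median distance became 3194.5 and 5444 bp, and neighbours within 5000 bp 43.0% and 43.8%. Bordering genes became 8.6% at 2000 bp. With protein-coding genes only, the median distance was 5663 bp, neighbours 48.2% and bordering genes 11.7%. In the stronger 50% of the list there were 270 members, a median signal of 334.9, 93.0% matched in all replicates, 28.5% with neighbours and 4.42% bordering genes. That setting keeps only strong peaks and fewer of them. Members minus promoter and distal intron peaks then reversed to 0.724 and 1.25 points (exact permutation). In the full replicate lists they reversed to 2.39 and 0.344 points, with 97.99% matched. Neighbours were 29.3% within 2000 bp and 59.0% within 10000 bp.

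To leave out a replicate, only IDR peaks matched in both others were kept. This kept 357 to 400 members, which is 59.7% to 66.9% of the 598. They had a median signal of 267.8 to 286 and a median distance of 3742 to 4144 bp. Of them 30.8% to 34.2% had neighbours, and bordering genes were 5.52% to 6.03%. Members minus promoter peaks ran from -8.42 points without replicate 3 to 2.25 points without replicate 1, and the cause was not tested. In choices made after seeing the data, the 8-mer of largest ratio stood at 2.01% and ACAGGGT at 2.51% of members, against 5.35% for TAAATAAA. Classes were compared within each replicate, and with 1 group there was no contrast between groups to block by replicate. Unknown depth limits what weak peaks show.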
